A study of Mus musculus with 12 samples.

Results

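The MS4A genes described here are the 9 members of the mouse family that were listed by symbol as macrophage genes: Ms4a4a, Ms4a4b, Ms4a4c, Ms4a6b, Ms4a6c, Ms4a6d, Ms4a7, Ms4a8a and Ms4a14. All 9 symbols were present among the 47729 genes of the count table, and all 9 were among the 15232 genes that passed the filter on low counts. Polyadenylated RNA was sequenced from adherent peritoneal macrophages of C57BL/6 mice, in 12 libraries that form 4 groups of 3. The groups were IL4c with SPARC, IL4c untreated, TG with SPARC and TG untreated. IL4c mice had received 2 injections of 5 ug of IL-4 complexed with 25 ug of antibody, a form that prolongs the action of the cytokine, with the last injection 2 days before collection. TG mice had received 3% thioglycollate, an irritant broth that draws monocytes into the peritoneum, 1 time, 4 days before collection. Cells of both kinds of mice were washed out with 7 ml, seeded and left to adhere for 2 h. They were then kept for 24 h with SPARC, a secreted matrix-associated glycoprotein, at 20 ug/ml, or left untreated. No control protein is named for the untreated wells. The labels do not say that the libraries of a group came from separate animals, so the p-values measure the spread between these libraries, which may be technical.

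MS4A proteins are small membrane proteins that cross the membrane 4 times and sit in complexes with other receptors, whose signalling they adjust. The best known member is Ms4a1, which encodes the B cell antigen CD20. In humans, MS4A4A marks alternatively activated macrophages and associates with the fungal receptor dectin-1, and variation at the locus has been linked to the soluble form of the microglial receptor TREM2. In mice, Ms4a4b is best known from T cells, Ms4a4c belongs to the genes that interferon raises in myeloid cells, Ms4a7 marks macrophages of the brain borders, and Ms4a8a has been described in alternatively activated macrophages.

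The 9 genes lie in 1 cluster on GRCm38 chromosome 19, spanning 537 kb at chr19:11067471-11604849. Some of them are near-copies of each other, which shows in the sequence before their start sites and matters for how reads can be assigned. RefSeq promoter windows for GRCm38.p6, from 250 bases before to 50 after a start site, were found for 8 members, with 2 windows for Ms4a7 and none for Ms4a6d. Among all pairs of windows the longest identical stretch was 48 bases, shared by Ms4a6c (plus strand, chr19:11469304-11469381) and Ms4a6b (plus strand, chr19:11518426-11518503). The next was 20 bases, shared by Ms4a4c (plus strand, chr19:11407608-11407657) and Ms4a4b (plus strand, chr19:11443502-11443551). No other pair shared more than 10 bases. The stretches are shown with flanking bases on each side, and capitals mark the bases that are identical and in the same order within each pair.
Ms4a6c: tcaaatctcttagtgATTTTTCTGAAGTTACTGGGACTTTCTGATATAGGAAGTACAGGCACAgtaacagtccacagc
Ms4a6b: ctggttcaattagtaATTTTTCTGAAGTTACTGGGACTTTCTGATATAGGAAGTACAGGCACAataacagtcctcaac
Ms4a4c: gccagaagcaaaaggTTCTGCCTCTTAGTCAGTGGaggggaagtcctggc
Ms4a4b: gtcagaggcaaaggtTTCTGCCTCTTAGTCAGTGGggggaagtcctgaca

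Ms4a14 and Ms4a7 are neighbours on the minus strand, 6.58 kb apart, and were the pair of members with the most similar pattern over the libraries, so their windows are shown in full. The Ms4a14 window is chr19:11314405-11314704, and the Ms4a7 window, the first of 2, is chr19:11336097-11336396. The motifs given here were searched on both strands of all 9 windows: the interferon response element core GAAANNGAAA, the STAT6-type site TTCNNNNGAA and the PU.1-type site GAGGAAGT. Capitals mark a match, and the Ms4a7 window held 1, of the STAT6 type, from 13 to 4 bases before the start site.
Ms4a14: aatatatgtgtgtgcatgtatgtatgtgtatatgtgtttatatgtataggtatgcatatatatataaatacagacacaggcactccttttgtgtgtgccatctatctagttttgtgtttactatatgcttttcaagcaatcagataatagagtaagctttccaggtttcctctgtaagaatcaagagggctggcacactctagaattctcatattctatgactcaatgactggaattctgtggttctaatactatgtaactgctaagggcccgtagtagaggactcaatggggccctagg
Ms4a7: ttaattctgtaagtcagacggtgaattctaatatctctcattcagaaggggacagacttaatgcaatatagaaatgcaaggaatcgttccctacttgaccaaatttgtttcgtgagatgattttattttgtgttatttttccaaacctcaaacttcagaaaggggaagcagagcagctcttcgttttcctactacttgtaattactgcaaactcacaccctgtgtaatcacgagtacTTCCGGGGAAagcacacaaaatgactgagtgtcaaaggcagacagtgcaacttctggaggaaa
The only other match to these motifs in the members' windows was TTCACAAGAA, also of the STAT6 type, from 9 to 18 bases after the start site of Ms4a6b. Of 32841 RefSeq promoter windows, 6.95% held a STAT6-type match, 3.44% the interferon core and 3.2% a PU.1-type match. These matches describe letters in a window and say nothing of binding.

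Libraries held 31501941 to 42288785 estimated counts, so 3 counts correspond to 0.0707 to 0.0974 CPM, the depth-scaled count used throughout. Macrophage markers summed to 12900 to 18800 CPM in IL4c SPARC wells and 20500 to 27800 CPM in IL4c untreated wells. In TG they summed to 30300 to 31100 CPM with SPARC and 22100 to 34900 CPM untreated, and none of the 9 marker rows was at 0 anywhere. Lyz2, the largest single part, fell with SPARC in IL4c wells (−1.28 ± 0.34 on the log2 scale, adjusted p = 0.0206). There Mertk fell too (−1.61 ± 0.18, adjusted p = 2.53e-04), and Fcgr1 rose (4.26 ± 0.48, adjusted p = 3.01e-04). The 2 TG libraries numbered 1, one with SPARC and one untreated, stood apart in markers of lymphocytes and of monocytes. Their 8 B cell markers summed to 1720 CPM with SPARC and 2170 CPM untreated, against 52.7 to 322 CPM in the other 10 libraries, and their 11 T cell markers to 43.6 and 40.3 CPM, against 2.91 to 8.89 CPM. The 7 monocyte markers summed to 482 to 779 CPM in IL4c SPARC wells and 208 to 271 CPM in IL4c untreated wells, to 2370, 992 and 996 CPM in TG SPARC wells 1 to 3, and to 973, 164 and 211 CPM in TG untreated wells 1 to 3. Library 1 was thus far the highest of both TG groups. In TG SPARC wells the monocyte gene F13a1 had 880 CPM in library 1, against 143 and 196 CPM in the other two, and in TG untreated wells it had 530 CPM in library 1, against 104 and 141 CPM. Within that list Ly6c2 rose and Ccr2 fell with SPARC in both kinds of cells, and Vcan rose in TG wells. Most of the IL4c SPARC sums was Hp, at 578, 646.5 and 416 CPM, against 102, 180 and 166 CPM in IL4c untreated wells. In TG wells Hp had 1011, 547 and 543 CPM with SPARC, against 229.5, 11.2 and 22.4 CPM untreated. The median log2 fold change of the 7 markers with SPARC was 0.35 in IL4c and 0.65 in TG wells. The 8 neutrophil markers summed to 26.9 to 41.4 CPM in IL4c SPARC wells and 6.93 to 9.72 CPM in IL4c untreated wells, and to 27.8 to 53.2 CPM in TG SPARC wells and 6.93 to 11.7 CPM in TG untreated wells. Nearly all of that was S100a8, which rose with SPARC in both (by 2.07 on the log2 scale in each, adjusted p = 9.65e-04 in IL4c and 0.00354 in TG). Camp had 1.16, 2.10 and 1.88 CPM in IL4c SPARC wells, against 0.032, 0.030 and 0.160 CPM in IL4c untreated wells. In TG it had 1.46, 0.316 and 0.235 CPM with SPARC, against 0.141, 0.026 and 0 CPM untreated. Of the 8 markers 2 were tested, and 2 were called higher in IL4c and 1 in TG. The defining marker Ly6g never exceeded 1 count. The 8 markers of large resident macrophages summed to 2270 to 4020 CPM in IL4c SPARC wells, 1520 to 2780 CPM in IL4c untreated wells, 630 to 1370 CPM in TG SPARC wells and 979 to 994 CPM in TG untreated wells. Most of the IL4c SPARC sums was Prg4, at 2947, 3150 and 1896 CPM, against 558, 522 and 364 CPM in IL4c untreated wells. For SPARC in IL4c wells the median log2 fold change of the 8 was −0.58. Of them 0 were called higher and 1 lower, where 15.1% and 12.7% of all tested genes were. Over all libraries, 7 natural killer cell markers summed to at most 4.61 CPM, 7 mast cell markers to at most 17.3 CPM and 5 eosinophil markers to at most 22.7 CPM. The part of any of these in the results that follow was not tested. In bulk RNA, fewer cells of a type and less RNA per cell cannot be told apart.

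Per transcript length, the MS4A family was a larger part of the macrophage RNA with SPARC in both kinds of cells, and its make-up differed between them. The FPKM values of the 9 genes, which are scaled by length and so can be added, summed to 935, 1450 and 1310 in IL4c SPARC wells, against 485, 433 and 395 in IL4c untreated wells. They summed to 1708, 1680 and 1570 in TG SPARC wells, against 1004, 526 and 587 in TG untreated wells. The sums of SPARC and untreated wells did not overlap in either injection, and the highest TG untreated value was that of library 1, which was high in lymphocyte and monocyte markers. Ms4a6d held a similar part throughout, at 28.1% to 40.01% of the sum in every library. Ms4a8a made up 16.3% to 23.2% of the sum in IL4c SPARC wells and 53.5% to 61.9% in IL4c untreated wells, but 2.08% to 3.94% in TG SPARC wells and 5.42% to 7.24% in TG untreated wells. Ms4a7 and Ms4a6c together with Ms4a4c filled most of the remainder in SPARC wells. In TG SPARC wells Ms4a4a held more of the sum than Ms4a4c, at 11.7% ± 3.86, against 1.92% ± 0.424 in IL4c SPARC wells. Ms4a7 held 18.0% ± 1.55 of the sum in IL4c SPARC wells, 4.62% ± 0.971 in IL4c untreated wells, 18.4% ± 7.30 in TG SPARC wells and 21.9% ± 9.12 in TG untreated wells (SD, n = 3 libraries). Ms4a4c held 8.98% ± 4.97, 0.370% ± 0.118, 6.70% ± 1.67 and 0.872% ± 0.607 of the sum in the same 4 groups. Ms4a6d ranked high among all genes, with a mean FPKM above that of 95.9% to 99.2% of the 12835 protein-coding genes tested, depending on the group. Ms4a4b was the lowest member in 3 of the 4 groups, above only 9.54% of those genes in IL4c untreated wells, and Ms4a14 was the lowest in TG SPARC wells, above 34.7%.

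**Figure D1:**
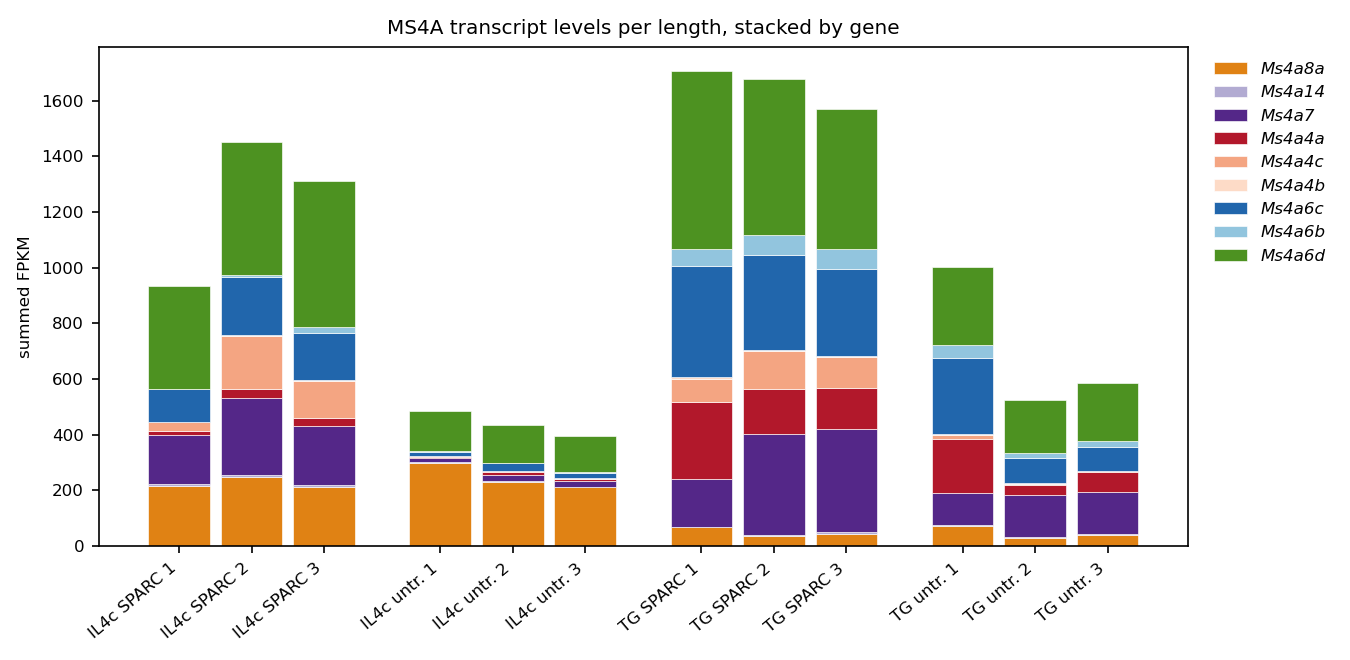
Summed FPKM of the 9 MS4A genes in each of the 12 libraries, stacked by gene, with bars starting at 0. Ms4a8a fills 53.5% to 61.9% of the IL4c untreated bars and 2.08% to 7.24% of the TG bars, and the SPARC bars are taller than the untreated bars of the same injection.

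The comparison of IL4c wells with and without SPARC asked how the protein alters macrophages that had been exposed to IL-4 in the animal. In IL4c wells 7 of the 9 members rose with SPARC and none fell (edgeR quasi-likelihood test, Benjamini-Hochberg adjusted p under 0.05 over 15232 genes). Of all tested genes, 15.1% were called higher and 12.7% lower. The members were chosen with earlier results of these data known, so their counts and the background are set side by side and not tested. The risers were Ms4a4c, Ms4a14, Ms4a7, Ms4a6b, Ms4a6c, Ms4a4b and Ms4a6d, in falling order of fold change. The median log2 fold change was 2.93 over the 9 members and −0.0014 over all tested genes. For 6 members the 3 SPARC libraries did not overlap the 3 untreated libraries. The share of all tested genes without such overlap was not counted, here or in the later comparisons.

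Ms4a4c, the interferon-raised member (ENSMUSG00000024675.19, plus strand, chr19:11404770-11427246), had 26.4, 153.5 and 105 CPM in IL4c SPARC wells, against 1.59, 1.57 and 0.825 CPM in IL4c untreated wells. The untreated values rest on 31.4 to 52.4 estimated counts each, and the lowest SPARC well still lay far above the highest untreated one. The rise was 6.17 ± 0.92 on the log2 scale (± SE, adjusted p = 0.00121), the largest of the members and the 54th largest in size of all tested genes.

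Ms4a7, the gene of border-associated brain macrophages (ENSMUSG00000024672.11, minus strand, chr19:11321039-11336146), had 183, 292 and 217.5 CPM in IL4c SPARC wells, against 17.7, 24.1 and 23.1 CPM in IL4c untreated wells. Its neighbour Ms4a14 (ENSMUSG00000099398.1, minus strand, chr19:11301249-11314454), the member with the longest coding sequence, had 24.2, 33.6 and 23.8 CPM in IL4c SPARC wells, against 2.27, 2.09 and 2.61 CPM in IL4c untreated wells. Both genes stood in a tight band in each group, and the bands lay far apart. Ms4a7 rose by 3.42 ± 0.32 (adjusted p = 1.49e-04) and Ms4a14 by 3.55 ± 0.42 (adjusted p = 3.93e-04). Set against the untreated well of the same number, the SPARC well had 10.3, 12.2 and 9.42 times the Ms4a7 CPM and 10.7, 16.1 and 9.12 times the Ms4a14 CPM.

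Among the Ms4a6 genes, Ms4a6d was the most abundant and the most even. Ms4a6d, whose protein has been reported to pair with the complement receptor VSIG4 in mouse macrophages (ENSMUSG00000024679.10, minus strand, chr19:11586604-11604849), had 479, 636 and 687 CPM in IL4c SPARC wells, against 190, 180 and 168 CPM in IL4c untreated wells. Ms4a6c (ENSMUSG00000079419.4, plus strand, chr19:11469366-11482192) had 176, 313 and 254 CPM in IL4c SPARC wells, against 22.8, 43.9 and 30.97 CPM in IL4c untreated wells. For both genes every SPARC library was above every untreated one, and Ms4a6d rose by 1.74 ± 0.17 (adjusted p = 1.56e-04) and Ms4a6c by 2.93 ± 0.44 (adjusted p = 0.00126). Ms4a6b (ENSMUSG00000024677.13, plus strand, chr19:11516512-11531256) was far more uneven, with 2.40, 12.5 and 31.9 CPM in IL4c SPARC wells, against 1.07, 1.57 and 2.69 CPM in IL4c untreated wells. Its lowest SPARC library lay below its highest untreated one, so the groups overlapped although the gene passed the test, at 3.12 ± 0.79 (adjusted p = 0.0162). The Ms4a6b call was lost in 5 of the 22 alternative settings, among them leaving out IL4c SPARC library 3 or IL4c untreated library 1 or 2 (adjusted p from 0.0551 to 0.102 in the 5). The log2 fold change was 2.07 without IL4c SPARC library 3, and 1.93 on log2(FPKM + 1).

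The remaining members moved less or at low levels. Ms4a4b (ENSMUSG00000056290.15, plus strand, chr19:11443553-11467055) had 0.844, 3.58 and 1.78 CPM in IL4c SPARC wells, against 0.487, 0.303 and 0.240 CPM in IL4c untreated wells. The untreated values rest on 8.6 to 15.3 estimated counts each, and the groups did not overlap. The rise was 2.59 ± 0.73 (adjusted p = 0.0252), and the call was lost without IL4c SPARC library 2, without any 1 of the IL4c untreated libraries, or on log2 FPKM values with no filter (adjusted p from 0.0503 to 0.0912). Ms4a4a, the mouse counterpart of the human marker of alternative activation (ENSMUSG00000101389.1, plus strand, chr19:11375523-11392790), had 10.3, 24.3 and 22.6 CPM in IL4c SPARC wells, against 2.69, 10.6 and 5.65 CPM in IL4c untreated wells. The groups overlapped, since SPARC library 1 lay just below untreated library 2. The log2 fold change was 1.596 ± 0.63 and did not pass (adjusted p = 0.0881), but each SPARC library was above the untreated library of its number, and the gene passed with the number as a block (1.69, adjusted p = 0.00667). It also passed when both TG libraries numbered 1 were left out (adjusted p = 0.0303), when TG untreated library 1 alone was (1.601, adjusted p = 0.0371) and with DESeq2 (1.59, adjusted p = 0.0245).

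Ms4a8a was the exception to the pattern of higher levels with SPARC. Ms4a8a (ENSMUSG00000024730.7, minus strand, chr19:11067471-11081102) had 223, 263 and 220.4 CPM in IL4c SPARC wells, against 312, 245 and 220.0 CPM in IL4c untreated wells. The ranges overlapped, and the log2 fold change was −0.14 ± 0.31 (adjusted p = 0.781). It was the most abundant member per length in each IL4c untreated library and was set at the other end of the cluster, 220 kb from Ms4a14.

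**Figure D2:**
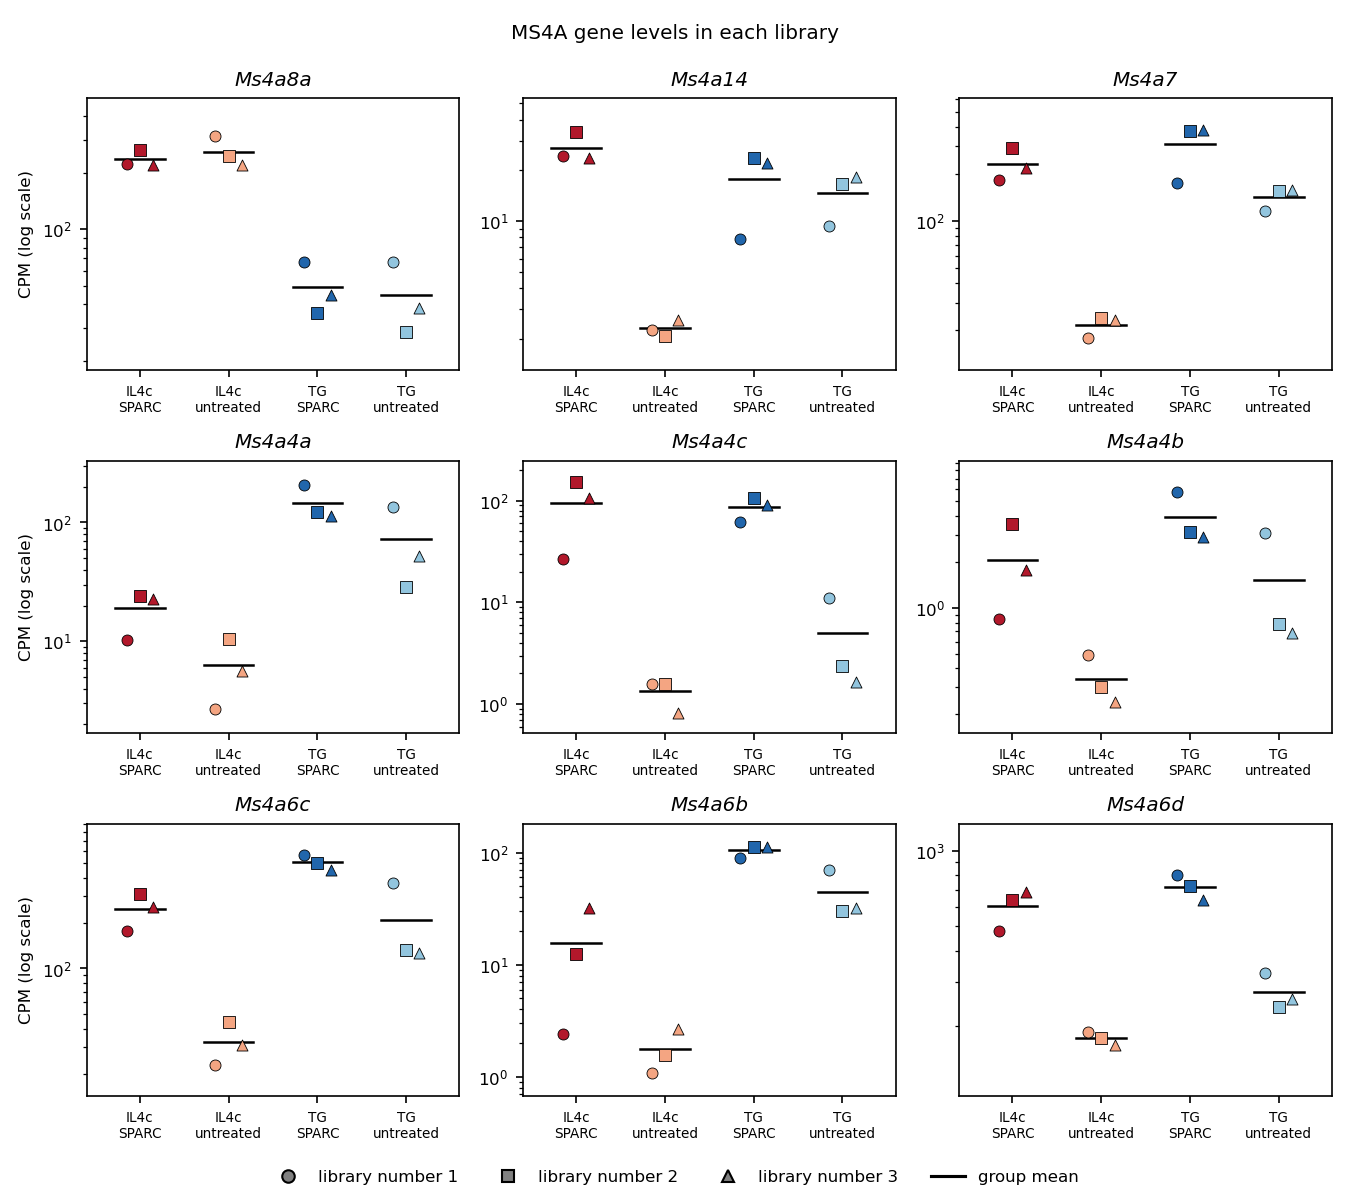
CPM of each MS4A gene on a log scale in the 12 libraries (symbols give the library number, bars the group mean; each panel has its own range). For Ms4a7 and Ms4a14 the IL4c untreated wells lie far below the other 3 groups, while for Ms4a8a both IL4c groups lie above both TG groups.

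In TG wells, 3 of the 9 members rose with SPARC and none fell, where 6.73% of all tested genes were called higher and 4.52% lower. The risers were Ms4a4c, Ms4a6d and Ms4a7, and the median log2 fold change was 1.24 over the members and −0.033 over all tested genes. For 5 members the SPARC libraries did not overlap the untreated ones, with no share over all genes to set beside it. With the library number as a block, 6 members rose, and 4165 genes were called in either direction. With the 2 TG groups fitted alone, 1 member rose and 505 genes were called, against 1714 in the main fit. The member calls without either TG library numbered 1 or without both of them stayed between 3 and 4, with 1229 to 2260 genes called.

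Ms4a4c had 61.6, 106 and 91.0 CPM in TG SPARC wells, against 11.0, 2.35 and 1.65 CPM in TG untreated wells. Untreated library 1, high in both lymphocyte and monocyte markers, was the highest of its group by far, yet still below every SPARC library. The rise was 4.10 ± 0.81 (adjusted p = 0.0130), and it was larger, at 5.64 ± 0.81 (adjusted p = 0.00323), when both TG libraries numbered 1 were left out. The call was lost when the TG groups were fitted alone (adjusted p = 0.0603).

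Ms4a6d had 799.5, 725 and 638 CPM in TG SPARC wells, against 326, 238 and 256 CPM in TG untreated wells. The groups were well apart, and the rise of 1.40 ± 0.17 (adjusted p = 0.00150) passed in all 22 alternatives. Ms4a7 had 174, 378 and 382 CPM in TG SPARC wells, against 115, 156 and 157 CPM in TG untreated wells. SPARC library 1 was low and only just above the untreated range, and the rise of 1.12 ± 0.30 (adjusted p = 0.0379) lost its call in 13 of 22 alternatives (adjusted p from 0.0517 to 0.138). Leaving out 1 library ended the call for 10 of the 12 libraries, all but IL4c SPARC library 2 and TG SPARC library 1. The gene passed when both TG libraries numbered 1 were left out (1.30 ± 0.21, adjusted p = 0.00571).

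Ms4a6c had 566, 498 and 449 CPM in TG SPARC wells, against 366, 133 and 128 CPM in TG untreated wells. The groups did not overlap, but untreated library 1 was well above the other two, and the log2 fold change of 1.27 ± 0.41 did not pass (adjusted p = 0.0787). It passed when TG untreated library 1 was left out (1.95, adjusted p = 0.00452), when both TG libraries numbered 1 were (1.89 ± 0.32, adjusted p = 0.00695) and with the block (1.46, adjusted p = 0.00682). DESeq2 called it too (1.28, adjusted p = 0.0129), as did limma on log2(FPKM + 1) (1.42, adjusted p = 0.0482). Ms4a6b had 88.7, 112.3 and 112.0 CPM in TG SPARC wells, against 70.5, 29.8 and 31.9 CPM in TG untreated wells. Here too the groups were apart and untreated library 1 was high, as were its monocyte markers, and the log2 fold change of 1.24 ± 0.70 did not pass (adjusted p = 0.297; adjusted p = 0.179 without both libraries numbered 1).

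Ms4a4a had 205.5, 123 and 113 CPM in TG SPARC wells, against 134.5, 28.9 and 52.7 CPM in TG untreated wells. Within each group library 1 was the highest, as it was in monocyte and lymphocyte markers, and untreated library 1 lay above 2 of the SPARC libraries. The log2 fold change was 1.03 ± 0.61 (adjusted p = 0.320), and the gene passed with the block (1.26, adjusted p = 0.0229) but not without both libraries numbered 1 (1.55 ± 0.57, adjusted p = 0.110). Ms4a4b behaved alike at a far lower level, with 5.76, 3.16 and 2.91 CPM in TG SPARC wells, against 3.11, 0.782 and 0.683 CPM in TG untreated wells. Library 1 was again the highest of each group, and the groups overlapped. The log2 fold change was 1.36 ± 0.67 (adjusted p = 0.228), with a pass under the block (1.59, adjusted p = 0.0350) and when TG untreated library 1 was left out (2.41, adjusted p = 0.0315), but not when both TG libraries numbered 1 were (2.07 ± 0.60, adjusted p = 0.0506). The T cell and monocyte markers were also highest in the libraries numbered 1, and their part in the levels of Ms4a4b and the other members was not tested.

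For Ms4a14 and Ms4a8a the values in TG wells with and without SPARC lay close together. Ms4a14 had 7.86, 23.5 and 22.3 CPM in TG SPARC wells, against 9.33, 16.6 and 18.2 CPM in TG untreated wells. Library 1 was low in both groups, the groups overlapped, and the log2 fold change was 0.28 ± 0.38 (adjusted p = 0.695). Ms4a8a had 67.0, 35.9 and 44.8 CPM in TG SPARC wells, against 67.2, 28.5 and 38.0 CPM in TG untreated wells. The ranges overlapped almost fully, and the log2 fold change was 0.14 ± 0.31 (adjusted p = 0.826).

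The difference of the SPARC responses, IL4c minus TG, was tested gene by gene as an interaction. No member was called, and 0% of all tested genes were called in either direction, although 1612 genes had an unadjusted p under 0.05, 865 of them with a larger response in IL4c wells and 747 with a smaller one. DESeq2 called 364 genes and the fit with the library number as a block 472, and 2 members, Ms4a7 and Ms4a14, were among the calls of each. The interaction of Ms4a14 was 3.26 ± 0.55 (unadjusted p = 1.53e-04, the 13th smallest of all genes, adjusted p = 0.147). That of Ms4a7 was 2.29 ± 0.42 (unadjusted p = 2.82e-04, the 28th smallest, adjusted p = 0.147). With the block the values were 3.33 for Ms4a14 (adjusted p = 0.00798) and 2.35 for Ms4a7 (adjusted p = 0.00986), and in the fit lacking the TG pair of number 1 they were 3.13 (adjusted p = 9.77e-04) and 2.12 (adjusted p = 0.00613). Leaving out only 1 library brought calls for both genes in 2 cases. Without TG SPARC library 1 the values were 2.88 for Ms4a14 (adjusted p = 0.0223) and 1.97 for Ms4a7 (adjusted p = 0.0384), and without TG untreated library 1 they were 3.50 (adjusted p = 0.0209) and 2.42 (adjusted p = 0.0360). In ratios of wells of the same number, SPARC over untreated, Ms4a14 stood at 10.7, 16.1 and 9.12 in IL4c and at 0.842, 1.41 and 1.23 in TG, while Ms4a7 stood at 10.3, 12.2 and 9.42 in IL4c and at 1.51, 2.43 and 2.42 in TG. The 2 sets of ratios did not overlap for either gene. For the other 7 members the interaction lay between −0.28 for Ms4a8a and 2.07 for Ms4a4c (adjusted p from 0.342 to 0.917). The median was 1.65 over the members and 0.017 over all tested genes.

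**Figure D3:**
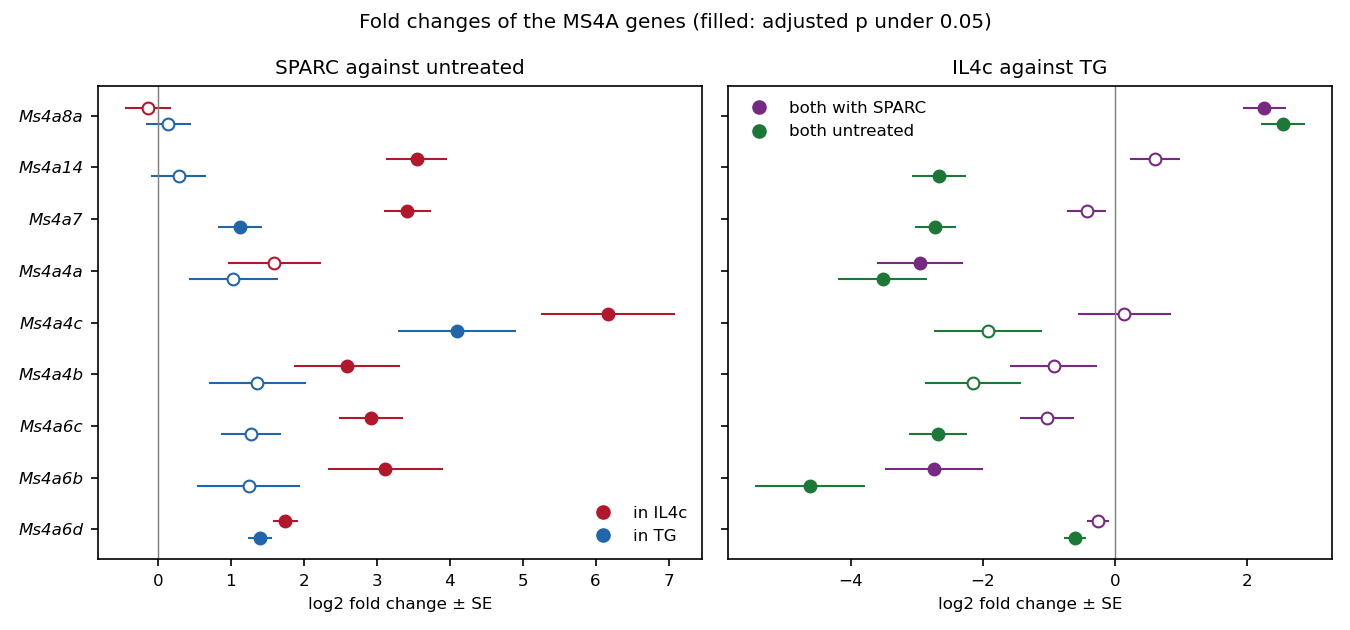
Log2 fold change ± SE of the 9 MS4A genes for SPARC against untreated wells (left, IL4c in red and TG in blue) and for IL4c against TG wells (right, SPARC wells in purple and untreated wells in green), with filled points for an adjusted p under 0.05. Ms4a14 and Ms4a7 lie at 3.55 and 3.42 in IL4c and at 0.28 and 1.12 in TG, and their gap between IL4c and TG in untreated wells has no called counterpart in SPARC wells.

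Between the injections, in untreated wells, the family was split. In all, 6 of the 9 members were lower in IL4c wells than in TG wells and 1 was higher, against 10.8% of all tested genes called lower and 10.2% called higher. The genes that were lower were Ms4a6b (−4.62 ± 0.83, adjusted p = 0.00595), Ms4a4a (−3.51 ± 0.67, adjusted p = 0.00747), Ms4a7 (−2.72 ± 0.31, adjusted p = 8.98e-04), Ms4a6c (−2.68 ± 0.44, adjusted p = 0.00399), Ms4a14 (−2.66 ± 0.41, adjusted p = 0.00332) and Ms4a6d (−0.61 ± 0.17, adjusted p = 0.0287). Ms4a8a was higher in IL4c wells, by 2.54 ± 0.33 (adjusted p = 0.00158). The 3 IL4c libraries did not overlap the 3 TG libraries for any of the 9 members, but the share of all tested genes without overlap was not counted. The median log2 difference was −2.66 over the members and −0.054 over all tested genes.

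In means, Ms4a4a stood at 6.30 ± 3.98 CPM in IL4c untreated wells and 72.0 ± 55.4 CPM in TG untreated wells (SD, n = 3 each), where library 1 had 134.5 CPM. Without both TG libraries numbered 1 its difference was −2.69 ± 0.53 (adjusted p = 0.00513), that of Ms4a6c −1.99 ± 0.29 (adjusted p = 0.00119) and that of Ms4a6b −4.08 ± 0.86 (adjusted p = 0.00670). Those of Ms4a7 and Ms4a14 were −2.85 ± 0.20 and −2.89 ± 0.17, and that of Ms4a8a was 2.97 ± 0.21. Each of these calls thus stood without the 2 libraries. Ms4a4b (−2.15 ± 0.72, adjusted p = 0.0597) and Ms4a4c (−1.92 ± 0.82, adjusted p = 0.122) did not pass, and without the 2 libraries they were at −1.09 ± 0.59 and −0.60 ± 0.80. DESeq2 called both (adjusted p = 0.0152 for Ms4a4b and 0.0344 for Ms4a4c), and total-count scaling called Ms4a4b (−2.30, adjusted p = 0.0454). The small difference of Ms4a6d lost its call without any 1 of the IL4c untreated libraries and without TG untreated library 1 or 3 (adjusted p from 0.0523 to 0.0888).

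With SPARC in both kinds of wells, fewer members differed. In these, 2 members were lower in IL4c wells and 1 was higher, where 10.1% of all tested genes were called lower and 10.9% higher. Ms4a4a differed by −2.95 ± 0.65 (adjusted p = 0.0115), at 19.1 ± 7.61 CPM in IL4c SPARC wells and 147 ± 50.8 CPM in TG SPARC wells. Ms4a6b stood at 15.6 ± 14.99 CPM in IL4c SPARC wells and 104 ± 13.6 CPM in TG SPARC wells, a difference of −2.74 ± 0.74 (adjusted p = 0.0271). The Ms4a6b call was lost in 5 alternatives, 3 of which left out IL4c SPARC library 2 or TG SPARC library 2 or 3 (adjusted p from 0.0585 to 0.0982). Ms4a8a stood at 235.5 ± 24.0 CPM in IL4c SPARC wells and 49.2 ± 16 CPM in TG SPARC wells, a difference of 2.26 ± 0.33 (adjusted p = 0.00169).

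For the other 6 members the difference in SPARC wells lay between −1.03 and 0.60. Ms4a7 averaged 231 ± 56.1 CPM in IL4c SPARC wells and 311 ± 119 CPM in TG SPARC wells (−0.43 ± 0.29, adjusted p = 0.316). Ms4a14 averaged 27.2 ± 5.53 CPM in IL4c SPARC wells and 17.9 ± 8.70 CPM in TG SPARC wells (0.60 ± 0.38, adjusted p = 0.273). Ms4a6c averaged 247.5 ± 68.6 CPM in IL4c SPARC wells and 504.5 ± 58.7 CPM in TG SPARC wells, without overlap, and did not pass (−1.03 ± 0.41, adjusted p = 0.102). Without both TG libraries numbered 1, Ms4a6c (−0.95, adjusted p = 0.0299) and Ms4a7 (−0.73, adjusted p = 0.0177) were also called lower, which brought the calls to 5. In that setting 5587 of all genes were called, against 3196 in the main fit. Ms4a6c was also called without TG untreated library 1 alone (−1.01, adjusted p = 0.0174), with the SPARC groups fitted alone (−1.03, adjusted p = 0.0315) and with DESeq2 (adjusted p = 0.0486), and Ms4a7 without TG SPARC library 1 alone (−0.73, adjusted p = 0.0443). The comparisons share libraries with the SPARC comparisons, so their values are given side by side and not as separate evidence.

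The order of the 4 groups by mean CPM differed among members, and neighbours in it often overlapped. For Ms4a6d and Ms4a7 the order was TG SPARC, IL4c SPARC, TG untreated and IL4c untreated, at 721, 601, 273 and 179 CPM for Ms4a6d and 311, 231, 143 and 21.6 CPM for Ms4a7. In both genes the 2 SPARC groups overlapped and the other neighbours did not. Ms4a6c and Ms4a4b had the same order, at 504.5, 247.5, 209 and 32.6 CPM for Ms4a6c, where only IL4c SPARC and TG untreated wells overlapped, and at 3.94, 2.07, 1.53 and 0.343 CPM for Ms4a4b, where only IL4c untreated wells stood apart. For Ms4a4c and Ms4a14 the order was IL4c SPARC, TG SPARC, TG untreated and IL4c untreated. The Ms4a4c means were 95.0, 86.1, 5.00 and 1.33 CPM, with overlap between the SPARC groups alone, and the Ms4a14 means were 27.2, 17.9, 14.7 and 2.32 CPM, with overlap between the TG groups alone. For Ms4a4a and Ms4a6b the order was TG SPARC, TG untreated, IL4c SPARC and IL4c untreated, at 147, 72.0, 19.1 and 6.30 CPM for Ms4a4a and 104, 44.1, 15.6 and 1.78 CPM for Ms4a6b. Ms4a4a overlapped within each injection but not between TG untreated and IL4c SPARC wells, and for Ms4a6b only TG SPARC wells stood apart from their neighbour. For Ms4a8a the order was IL4c untreated, IL4c SPARC, TG SPARC and TG untreated, at 259, 235.5, 49.2 and 44.6 CPM, and wells of the same injection overlapped.

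The near-copies limit what can be said of single genes. Identity of coding sequences in GENCODE models of GRCm38 was taken as a share of the longer of the 2. It was 91.7% for Ms4a4b and Ms4a4c, 80.4% for Ms4a6b and Ms4a6d, and 75.7% for Ms4a6b and Ms4a6c. The Ms4a6c sequence has 651 bases, against 732 for Ms4a6b and 741 for Ms4a6d, which lowers its share, so the order of these pairs depends on the measure. Ms4a14, with 3696 bases, was at most 19.1% identical to any other member. Estimated counts of Ms4a4b, Ms4a4c, Ms4a6b and Ms4a6d were not whole in any of the 12 libraries and those of Ms4a6c in 11, so part of their reads was divided among genes. Those of Ms4a4a, Ms4a7, Ms4a8a and Ms4a14 were whole in all 12. The Ms4a4b count amounted to 3.16%, 2.33% and 1.68% of the Ms4a4c count in IL4c SPARC wells, against 31.5%, 18.2% and 27.4% in IL4c untreated wells. In TG the shares were 9.33%, 2.98% and 3.19% with SPARC, against 28.4%, 33.6% and 41.7% untreated. Ms4a4b thus did not hold a fixed share of Ms4a4c, but its values of 0.240 to 5.76 CPM are uncertain where reads match both genes. Of all 50-base words of the Ms4a6c transcripts, 51.4% also occur in another gene, nearly all of them in BE692007, a transcript annotated on the opposite strand over the same bases. The BE692007 counts were nevertheless whole in all 12 libraries, so by that measure no reads were divided with it. No strand setting is stated, so how reads of the shared bases were assigned is uncertain.

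BE692007 was highest in the TG libraries numbered 1, at 38.6 CPM with SPARC and 45.1 CPM untreated, against 2.19 to 7.59 CPM in the other 10. Next to it, Gm8369 had 18.1 CPM in TG SPARC library 1 and 21.6 CPM in TG untreated library 1, against 2.26 to 4.84 CPM elsewhere. The B cell gene Ms4a1, which lies inside the cluster, had 86.9 CPM in TG SPARC library 1 and 224.6 CPM in TG untreated library 1, against 5.30 to 39.98 CPM elsewhere. All 3 were thus highest in the 2 libraries with the most lymphocyte marker RNA, and none of the 5 tested genes of the cluster that are no members was called for SPARC in either injection. The cluster holds 27 annotated genes, and 14 of the 27 were tested, some of them not protein coding. In chromosome order the members that rose in IL4c wells run from Ms4a14 to Ms4a6d, with the uncalled Ms4a4a and the non-members BE692007, Gm8369 and Gm38275 among them, and Ms4a8a, Gm6501 and Ms4a1 lie outside at 1 end.

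**Figure D4:**
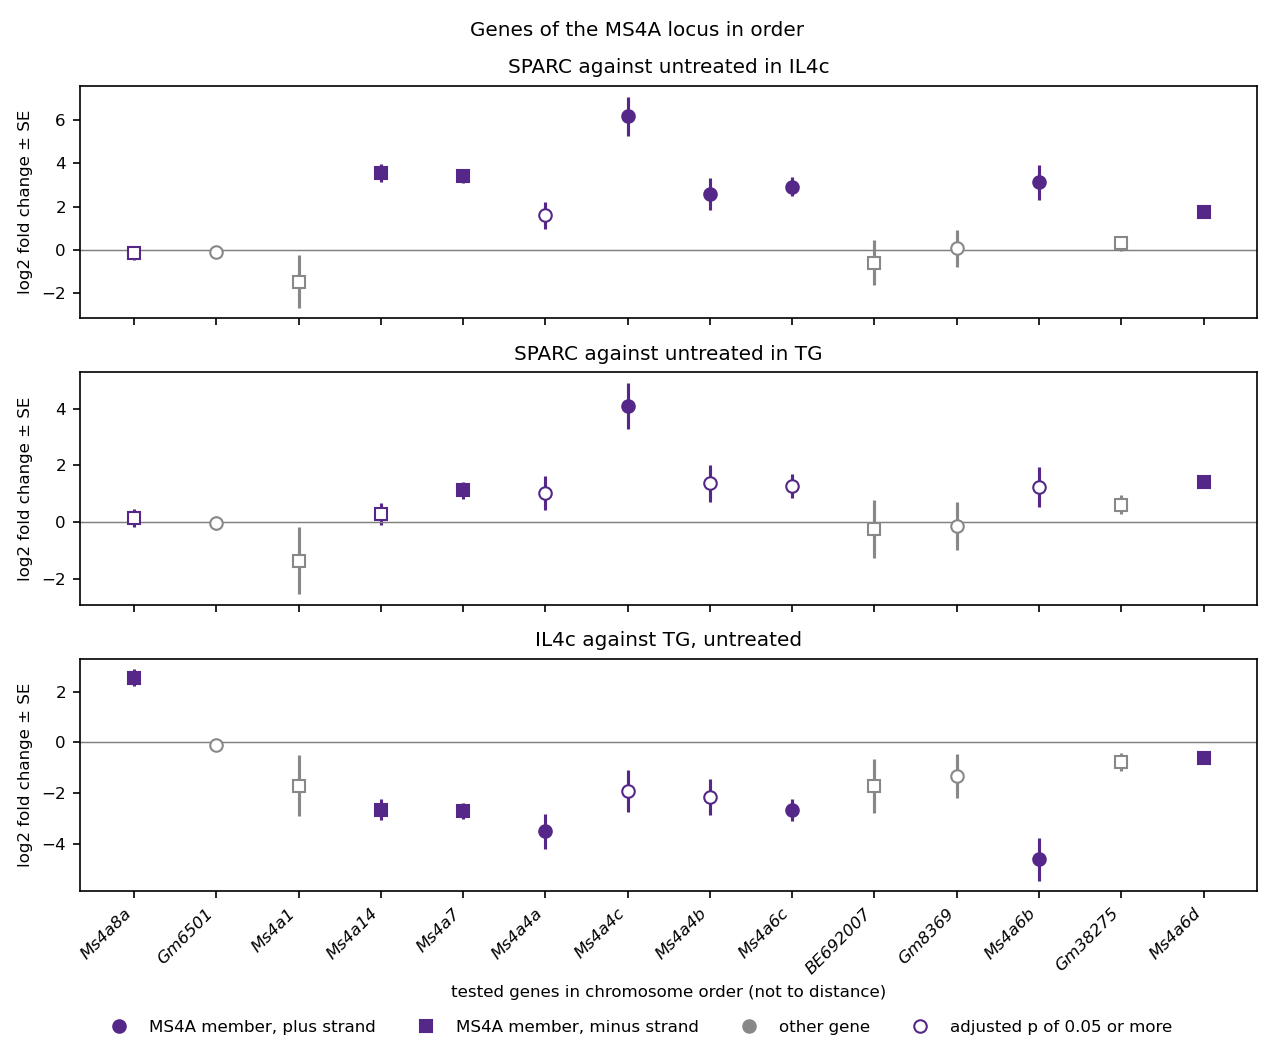
Log2 fold change ± SE of the 14 tested genes of the MS4A cluster in chromosome order, not to distance, for SPARC against untreated in IL4c (top) and in TG (middle) and for IL4c against TG in untreated wells (bottom), with filled points for an adjusted p under 0.05 and grey for genes that are no members. Filled points in the top panel run from Ms4a14 to Ms4a6d, while the points of Ms4a8a, Ms4a4a and the grey genes are unfilled.

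Some genes outside the family had almost the same pattern as a member, measured as the root mean square difference of mean-centred log2 CPM over the 12 libraries among 12826 protein-coding genes. Ms4a4c was most like Pydc4 (0.47) and Pydc3 (0.71), genes for pyrin-domain proteins of the interferon-inducible Ifi200 cluster, where the median gene differed by 2.80. Ms4a6d was most like Slc7a8 (0.20), an amino acid transporter gene, and Slfn8 (0.23), a Schlafen gene, where the median gene differed by 0.91. Ms4a8a was most like Ptprm (0.17), which encodes a receptor tyrosine phosphatase, and Ube2e2 (0.21), which encodes a ubiquitin-conjugating enzyme. Ms4a4b and Ms4a6c both had Dusp6, a phosphatase gene of the ERK pathway, among their closest, each at 0.44, beside BC147527 for Ms4a4b (0.39) and the transporter gene Slco3a1 for Ms4a6c (0.51). Ms4a14 was closest to Parp8 (0.59) and to Nr1h3 (0.63), which encodes the sterol receptor LXR alpha, and Ms4a7 to Sgms2 (0.56), a sphingomyelin synthase gene, and Parp8 (0.57). Ms4a4a was closest to Lst1 (0.65) and Synpo2 (0.66), and Ms4a6b to the receptor genes Gpr141 (0.93) and Gpr162 (0.96). Within the family the closest pairs were Ms4a7 and Ms4a14 (0.48), Ms4a4b and Ms4a6c (0.57) and Ms4a6c and Ms4a7 (0.63), and the most different pair was Ms4a6b and Ms4a8a (3.49).

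The further MS4A genes had no calls, while genes of the receptor pathways tied to MS4A proteins summed to less with SPARC in both kinds of wells. Of 12 further MS4A and related genes in the table, only Ms4a1, Tmem176a and Tmem176b passed the filter, and none was called in any comparison. Of the rest, 5 were listed at 0 throughout and 4 did not exceed 13 counts. Tmem176b, an intracellular relative found in myeloid cells, stood at 0.62 ± 0.80 for SPARC in IL4c wells (adjusted p = 0.611) and −1.22 ± 0.81 in TG wells (adjusted p = 0.386). Of 8 genes of the dectin-1 and TREM2 pathways, all tested, 1 rose and 3 fell with SPARC in IL4c wells, and 1 rose in TG wells. Over all tested genes, 15.1% were called higher and 12.7% lower in IL4c and 6.73% higher in TG. The single riser in each is thus near the background, while the 3 of 8 that fell in IL4c are a larger share. The 8 genes summed to 1240 to 1550 CPM in IL4c SPARC wells, against 2090 to 2390 CPM in IL4c untreated wells. In TG they summed to 1630 to 2200 CPM with SPARC, against 2310 to 3240 CPM untreated. Malt1, a protease of the signalling complex below dectin-1, rose by 1.05 ± 0.17 in IL4c (adjusted p = 0.00184) and by 0.61 ± 0.17 in TG (adjusted p = 0.0454). Clec7a, which encodes dectin-1, fell by 1.41 ± 0.47 (adjusted p = 0.0486) in IL4c, Tyrobp, which encodes the adaptor of TREM2, by 0.94 ± 0.19 (adjusted p = 0.00583), and Syk, the kinase that both receptors use, by 0.46 ± 0.10 (adjusted p = 0.00733). Trem2 itself stood at −1.08 ± 0.50 in IL4c (adjusted p = 0.140) and −1.03 ± 0.50 in TG (adjusted p = 0.228). The difference of the responses was not called for any of the 8.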

How the data were processed

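Polyadenylated RNA of 12 macrophage libraries was sequenced, 3 in each of 4 groups. The authors deposited estimated counts per gene, of which 7.97% are not whole, and FPKM values, which are scaled by gene length and library size. STAR, RSEM, CASAVA and bcl2fastq 1.8.4 were used, per the submitters' processing notes, and RSEM divides reads of near-identical genes between them. No genome build, gene models or strand setting were stated in the sources. Gene identifiers matched GENCODE models of GRCm38 for 98.9% when the version was ignored and for 81.9% when it was kept, and member positions come from those models.

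The members, the gene lists and the tests were chosen with earlier results of these data known. Rounded expected counts went into edgeR 4.0.16 (R 4.3.3), with its quasi-likelihood test, TMM scaling and a filterByExpr minimum count of 10. A single model held the 12 libraries as 4 groups (8 residual degrees of freedom), and p-values were Benjamini-Hochberg adjusted over the 15232 tested genes, with a call at an adjusted p under 0.05. The SE is the absolute log2 fold change over the square root of F. CPM values use the TMM-scaled library sizes. The fit was tested on simulated data. No 2 libraries of a group were copies.

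Library numbers were read as pairing the wells of an injection: deviations from the group means correlated at 0.342 to 0.735 in all 6 same-numbered pairs, and at −0.660 to 0.507 in differently numbered pairs of an injection. In TG the pairs of libraries 2 and 3 with different numbers reached 0.448 and 0.507, nearly as high as 0.599 and 0.533 with the same number, so the numbers 2 and 3 are hardly separated there. This comes from the data, as the labels state no more than the numbers. Pairs across injections lay between −0.178 and 0.250. Alternatives were RLE and total-count scaling, no low-count filter, DESeq2 1.42.0, limma 3.58.1 on log2 FPKM with pseudocounts of 1 and 0.1 (at least 1 FPKM in 3 libraries) or without a filter, the compared groups alone, the library number as a block, each library left out, and both TG libraries numbered 1 left out. The main fit made no use of the library numbers. For SPARC and for the difference of responses the block was the number within an injection. For IL4c against TG it was the number across both injections, although pairs across injections correlated little. All 9 members are named. From the other lists, genes were named where they passed or where a result turned on them, and Trem2 and Tmem176b were chosen after their values were seen. For each member the 2 protein-coding genes with the smallest root mean square difference of mean-centred log2 CPM (prior count 2) were named. Each ± on a log2 fold change is the SE, and each ± on a mean CPM or a share is the SD of 3 libraries. A further promoter motif was searched and is not reported here.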

Additional observations from a re-analysis of the deposited data

How the results depend on the processing

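Over 22 alternatives, 45 log2 values of members were recomputed, 981 in all: 905 kept their direction and side of the threshold, 34 lost a call, 32 gained one and 10 changed sign. The number of members called for SPARC was between 5 and 8 in IL4c when single libraries were left out, and 8 with the replicate block, against 7. In TG it was between 2 and 4 when single libraries were left out, 1 with the compared groups alone and 6 with the replicate block, against 3. Between IL4c and TG it was 6 to 7 in untreated wells, against 7, and 2 to 4 in SPARC wells, against 3, when single libraries were left out, and it was 5 in SPARC wells without both TG libraries numbered 1. For the difference of the SPARC responses it was between 0 and 2 when single libraries were left out, and 2 with DESeq2, with the replicate block and without both TG libraries numbered 1, against 0. The block changed no call other than those given with the results. The values that changed sign were all far from the threshold: Ms4a8a with SPARC was 0.018 in IL4c without IL4c untreated library 1 (−0.2389 to 0.018 over single libraries left out), and −0.096 and −0.0631 in TG without TG SPARC library 1 and TG untreated library 2 (−0.096 to 0.5575). Ms4a4c in SPARC wells was −0.1866 on log2(FPKM + 1) with and without a filter, −0.1928 on log2(FPKM + 0.1), −0.3855 without IL4c SPARC library 2 (up to 0.5998 over single libraries left out), −0.0582 without TG SPARC library 1 and −0.0595 without both TG libraries numbered 1. The response difference of Ms4a4a was −0.241 without TG untreated library 1 (up to 1.153). The cause was not tested. Total-count scaling shifted the median of all genes between IL4c and TG untreated wells by −0.111, and log2(FPKM + 0.1) by −0.103. Counts over all genes moved by more than 1.5 times in some settings. For SPARC in IL4c, 4237 genes were called, against 6880 with the block, 6507 without both TG libraries numbered 1 and 2507 to 5178 without single libraries. For SPARC in TG, 1714 were called, against 4165 with the block, 2632 with DESeq2, 1001 on log2(FPKM + 1) without a filter, 505 in the compared groups alone and 737 to 2095 without single libraries. Between untreated wells, 3197 were called, against 1631 in the compared groups alone, 6002 without both TG libraries numbered 1 and 1376 to 4562 without single libraries, and between SPARC wells 3196, against 5587 and 1777 to 4293. For the response difference the count was 0, against 836 without both TG libraries numbered 1, 0 to 278 without single libraries, 364 with DESeq2, 472 with the block and 2 to 38 in 5 other settings. The compared groups alone give no value for the difference of responses. Depth limits Ms4a4b most, at 8.6 counts in its lowest library.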
